A study of Mus musculus with 2 samples.

Results

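Chemokines are small secreted proteins that steer the movement of leukocytes, and the chemokine receptors are the proteins through which cells sense them. The genes of both were described here in nuclei of ischemic mouse muscle. Members were taken by symbol: every listed gene named Ccl, Cxcl, Ccr or Cxcr with a number, together with Cx3cl1, Cx3cr1, Xcl1, Xcr1 and Ackr1 to Ackr4. This gave 66 of the 32285 listed genes, with 60 different symbols, since Ccl19, Ccl21 and Ccl27 genes are present as near-identical copies. Of the 66 members, 44 were ligands, 18 were receptors and 4 were atypical receptors.

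The tibialis anterior, which lifts the foot, was studied by single-nucleus RNA sequencing in male mice aged 16 to 20 weeks. The mice had chronic kidney disease and were studied on day 5 of femoral artery ligation. The AHRfl/fl library came from mice whose Ahr gene, encoding the aryl hydrocarbon receptor, carries recombination sites. The AHRmKO library came from mice meant to lack Ahr in muscle fibres, and both libraries carry the same strain label, a cross of AHRtm3.1Bra/J and Tg(ACTA1-cre/Esr1*)2Kesr/J. In that cross the Cre recombinase is driven by a skeletal actin promoter, so fibres are the cells it is meant to act in, and the Esr1 part of the transgene makes the recombinase depend on an oestrogen receptor ligand, whose use the labels do not state. Kidney disease and ligation were shared by both groups, and no group without them is analysed here. There was 1 library per group and the number of mice behind each is not stated. Each difference below is therefore a difference between 2 libraries without replicates or a test, and genotype, animal and library cannot be told apart.

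CC ligands such as Ccl2 and Ccl7 act on Ccr2 and draw monocytes from blood into injured tissue, while Cx3cr1 marks monocytes and macrophages that respond to the membrane-bound ligand Cx3cl1. Cxcl9 and Cxcl10 are induced by interferon and act on Cxcr3 of T cells, Cxcl1 and Cxcl2 act on Cxcr2 of neutrophils, and Cxcl12 acts on Cxcr4. Atypical receptors of the Ackr family bind chemokines without the usual G-protein signalling and take them up or transport them.

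Levels are given as unique molecular identifiers (UMIs, 1 per captured RNA molecule) per 1000000 UMIs of all nuclei of a class (CPM), with exact Poisson intervals at 95%. All intervals cover counting error only. After filtering, 17070 nuclei were kept in the AHRfl/fl library and 7660 in the one labelled AHRmKO, with a median of 3675 and 3593 UMIs. The libraries stood apart: 13 of 21 clusters drew over 90% of their nuclei from 1 library, and the median mitochondrial share was 0.907% and 2.33%. Only 31 barcodes were shared. Immature myonucleus-like nuclei numbered 3253 and 7 and were not compared. Myofibre markers summed to 37171 and 71544 CPM in myofibre-like nuclei, which were 8.39% and 28.3% of nuclei, while macrophage-like nuclei were 42.7% and 31.9%. Ahr itself did not separate the labels: in myofibre-like nuclei its level was 28.8 CPM (237 UMIs) in the AHRfl/fl library and 27.6 CPM (290 UMIs) in the AHRmKO library. The 3′ chemistry counts mainly the end of a transcript, so a deletion elsewhere in the gene need not lower the count, and the value does not check the labels. RNA released from broken cells was estimated from barcodes of 200 to under 500 UMIs and from fibre markers in macrophage-like and endothelial-like nuclei. It made up an estimated 21.5% and 23.7% of UMIs, pooled over these classes. For each gene the level that this free RNA would give is called the free-RNA level. The same share per library served every class, although fibre markers were uneven. Their sums for endothelial-like, macrophage-like and fibroblast-like nuclei were 8942, 3514 and 2752 CPM (AHRfl/fl) and 3926, 2057 and 1578 CPM (AHRmKO). Levels using a share from each class alone were not computed. Each comparison with a free-RNA level therefore rests on the pooled share.

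Over all nuclei, the members took 690 CPM (52223 UMIs) in the AHRfl/fl library and 408 CPM (15178 UMIs) in the AHRmKO library. Their UMIs were spread unevenly over the genes: 38 members had at least 50 UMIs, 19 had at least 1000, and 17 had under 10, of which 9 had 0. The 9 were Ccl27b and copies of Ccl19, Ccl21a, Ccl21b, Ccl21c and Ccl27a, 7 of them on unplaced scaffolds. Reads that fit several copies may have been lost there, so these genes are uncertain. Ccr8, a receptor of T cells, had 1 UMI, and Ccr7, a receptor of dendritic cells and T cells, had 23.

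The summed level of the members was highest in macrophage-like nuclei, with 1065 CPM in the AHRfl/fl library and 751 CPM in the AHRmKO library. Fibroblast-like nuclei followed with 965 and 701 CPM, endothelial-like nuclei had 770 and 307 CPM, and adipocyte-like nuclei had 607 and 361 CPM. Satellite-like nuclei, which carry markers of muscle stem cells and myoblasts, had 422 and 215 CPM, and myofibre-like nuclei had 344 and 150 CPM. The order of the first 2 classes was the same in both libraries, and each class was lower in the AHRmKO library. In all, 16 members reached 10 CPM in both libraries in at least 1 of 6 classes: 10 ligands, 5 receptors and the atypical receptor Ackr3. Of the 38 members with at least 50 UMIs, 29 had their highest level in the same class in both libraries: 14 in macrophage-like, 8 in fibroblast-like, 3 in adipocyte-like, 2 in satellite-like nuclei, and 1 each in endothelial-like and myofibre-like nuclei. For many of the 29 the intervals of the highest and the next class overlapped. In the AHRmKO library this held for the 3 adipocyte-like ones: Ccl24 (2.44 against 1.37 CPM), Ackr4 (2.44 against 1.19 CPM) and Ccl25 (87.9 against 77.2 CPM). A level of 2.44 CPM there is 1 UMI. In the AHRfl/fl library Ccl24 had 1.71 against 1.69 CPM, also on 1 UMI in adipocyte-like nuclei, so its highest class is uncertain.

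**Figure D1:**
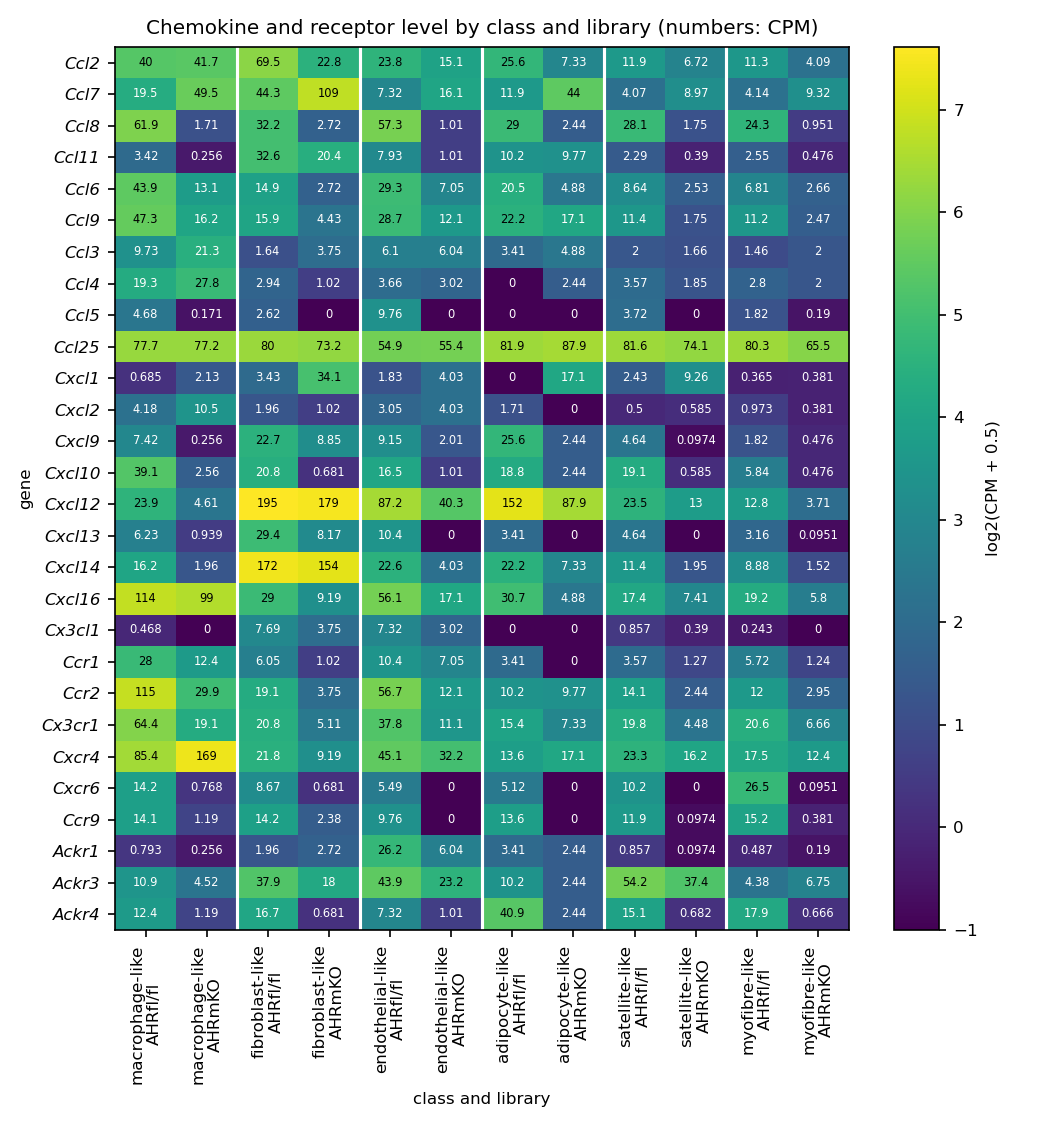
Level of 28 chemokine and receptor genes (rows) in the 6 classes and 2 libraries (columns), coloured by log2(CPM + 0.5) with the CPM printed in each cell. Cxcl12 and Cxcl14 are brightest in fibroblast-like nuclei, Ccr2, Cxcl16 and Cxcr4 in macrophage-like nuclei, and Ccl25 is nearly even across all columns.

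Among the receptors, Cxcr4, the receptor of Cxcl12, had 85.4 CPM (82.0 to 88.9) in macrophage-like nuclei of the AHRfl/fl library and 169 CPM (162 to 177) in the other. After each nucleus was thinned to 2000 UMIs, a Cxcr4 UMI was found in 16.5% and 28.6% of macrophage-like nuclei, against 3.0% and 2.35% of myofibre-like nuclei. Ccr2, the receptor for Ccl2 and Ccl7 on inflammatory monocytes, went the other way, with 115 CPM (111 to 119) and 29.9 CPM (26.8 to 33.2). Its level in satellite-like nuclei was 14.1 and 2.44 CPM, below the free-RNA levels of 17.8 and 3.49 CPM, and so not above background. Endothelial-like nuclei had the next highest level of Ccr2, 56.7 CPM in the AHRfl/fl library and 12.1 CPM in the other. They also held macrophage markers, which summed to 4062 and 1263 CPM over 13 genes, none of them at 0. The part of these markers in the endothelial-like values was not tested. Cx3cr1 had 64.4 and 19.1 CPM, and Ccr1, a receptor of Ccl3, Ccl6 and Ccl9, had 28.0 and 12.4 CPM. The annotated Cx3cr1 gene spans 168264 bases and overlaps 9 other genes, so its counts are less certain than those of Ccr2 and Ccr1, which overlap none.

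The atypical receptor Ackr3, which takes up Cxcl12, had its highest level in satellite-like nuclei, with 54.2 CPM (50.4 to 58.2) in the AHRfl/fl library and 37.4 CPM (33.8 to 41.4) in the AHRmKO library. Endothelial-like nuclei had 43.9 and 23.2 CPM of Ackr3, and their intervals overlapped those of satellite-like nuclei in both libraries. Macrophage-like nuclei, with 10.9 and 4.52 CPM, were close to the free-RNA levels of 10.1 and 5.94 CPM. Ackr1, which venous endothelium carries, had 26.2 CPM (43 UMIs) and 6.04 CPM (6 UMIs) in endothelial-like nuclei. Cadm3, on the same strand, overlaps 26.4% of Ackr1 and had 14.6 and 27.2 CPM there, so the Ackr1 counts are less certain. In macrophage-like nuclei Ackr1 had 0.793 and 0.256 CPM.

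The ligand Cxcl12, a retention signal for leukocytes and progenitors, had 195 CPM (185 to 207) in fibroblast-like nuclei of the AHRfl/fl library and 179 CPM (164 to 195) in those of the AHRmKO library. The log2 ratio was -0.13 with an interval of -0.28 to 0.02. Cxcl14, a ligand of stromal cells, had 172 and 154 CPM there, with a log2 ratio of -0.16. Both ligands differed little between the libraries in the class where they were highest. For Ccl11, which acts on Ccr3 of eosinophils, fibroblast-like nuclei gave 32.6 and 20.4 CPM, above the 3.42 and 0.256 CPM of macrophage-like nuclei. Cxcl16, the membrane-bound ligand of Cxcr6, had 114 and 99.0 CPM in macrophage-like nuclei. Cx3cl1 was low: 47 and 11 UMIs in fibroblast-like nuclei gave 7.69 and 3.75 CPM, and macrophage-like nuclei had 13 and 0 UMIs. Endothelial-like nuclei had a similar level, 7.32 and 3.02 CPM on 12 and 3 UMIs.

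In macrophage-like nuclei, 44 of the 66 members had at least 10 UMIs over both libraries and could be compared. A gene counted as different where its levels, with 0.5 CPM added, were 2-fold or more apart. Among the 44, 22 were lower in the AHRmKO library, while the same rule called 18.0% of all 18116 genes lower. Another 4 were higher, against 3.03% of all genes, and the other 18 lay between. The median log2 ratio of the 44 was -1.05, and that of all genes was -0.16. With 2 CPM added instead of 0.5 these medians were -0.37 and -0.12, and without the minimum of 10 UMIs, over all 66 members, -0.23 and 0. The 22 lower members were 13 of 26 ligands and 9 of 18 receptors, atypical receptors included. All 4 higher members were ligands. The 4 were Ccl7, Cxcl2, Cxcl1 and Ccl3. Of the 22 lower members, 5 were at or under their free-RNA level in the AHRfl/fl library: Ccl11, Cxcl5, Cxcl12, Cxcl13 and Cxcl14. For Cxcl12 these values were 23.9 CPM against a free-RNA level of 25.8 CPM. Ackr3, another of the lower members, was close to its free-RNA level. Its log2 ratio fell under 2-fold without the mitochondrial and doublet filters (-0.48) and with 2 CPM added (-0.98). Fibroblast markers summed to 730 and 97.1 CPM in macrophage-like nuclei, over 10 genes with none at 0, and their part in the lower values of these ligands was not tested.

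Ccl7, a Ccr2 ligand, had 19.5 CPM (17.9 to 21.3) in macrophage-like nuclei of the AHRfl/fl library and 49.5 CPM (45.6 to 53.7) in those of the AHRmKO library, a log2 ratio of 1.32. Its neighbour Ccl2 had 40.0 and 41.7 CPM, a log2 ratio of 0.06, although the transcript Gm17268, annotated on the opposite strand across all of Ccl2, had 50.4 and 10.6 CPM. Whether the counts of Ccl2 and Gm17268 are separated by strand is not given in the sources used here. Ccl3 had 9.73 and 21.3 CPM, and Cxcl2 had 4.18 CPM (116 UMIs) and 10.5 CPM (123 UMIs). Without the mitochondrial and doublet filters their log2 ratios fell just under 2-fold, to 0.99 for Ccl3 and 0.95 for Cxcl2. With 2 CPM added that of Ccl3 was 0.99. Cxcl1 rested on 19 and 25 UMIs, and its log2 ratio of 1.15 fell under 2-fold from 5000 UMIs per barcode (0.58), with 2 CPM added (0.62) and in the cluster with at least 50 nuclei of each library (0.03), where it had 2 UMIs in each library. With free RNA subtracted 7 members were higher, and with 2 CPM added instead of 0.5, or without the mitochondrial and doublet filters, 2 were. The shares of all genes called under these settings are not given here, so these counts have no background beside them.

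At the other end, Ccl8, a ligand made by macrophages, had 61.9 CPM (59.1 to 64.9) in macrophage-like nuclei of the AHRfl/fl library and 1.71 CPM (1.04 to 2.64) in those of the AHRmKO library. The log2 ratio was -4.82. Ccl8 was also abundant in free RNA, whose level was 46.9 and 2.78 CPM. Its levels in fibroblast-like (32.2 CPM), satellite-like (28.1 CPM) and myofibre-like nuclei (24.3 CPM) of the AHRfl/fl library were all below 46.9 CPM, and adipocyte-like nuclei had 29.0 CPM. Endothelial-like nuclei had 57.3 CPM with an interval of 46.3 to 70.2. Only in macrophage-like nuclei of that library did the interval lie above the free-RNA level. Cxcl10 had 39.1 and 2.56 CPM in macrophage-like nuclei, a log2 ratio of -3.69, and its neighbour Cxcl9 had 7.42 CPM (206 UMIs) and 0.256 CPM (3 UMIs). Cxcl9 was higher in fibroblast-like nuclei (22.7 and 8.85 CPM) and in adipocyte-like nuclei (25.6 and 2.44 CPM, on 15 UMIs and 1 UMI). In barcodes of 200 to under 500 UMIs it had 26.2 and 2.28 CPM. Ccl5, a T-cell and macrophage ligand, had 4.68 CPM (130 UMIs) and 0.171 CPM (2 UMIs) in macrophage-like nuclei. Ccl6 had 43.9 and 13.1 CPM, and Ccl9 had 47.3 and 16.2 CPM. Cxcl10 and Ccl6 lie wholly within opposite-strand genes, so their counts are less certain. These are Art3, with 5.33 and 4.78 CPM, and E230016K23Rik, with 4.94 and 0.597 CPM. Ccl24, a ligand of alternatively activated macrophages, had 1.69 and 1.37 CPM. In this class 9 neutrophil markers summed to 136 and 223 CPM, with 1 and 2 of them at 0, and 11 T or NK cell markers to 140 and 184 CPM, with 0 and 1 at 0. Both sums were above those of the other 5 classes. They were also higher in the AHRmKO library, where Cxcl1, Cxcl2 and Ccl3 were higher in macrophage-like nuclei too. The part of these markers in the values of the 3 ligands was not tested. The 9 dendritic cell markers, none at 0, went the other way, with 228 and 77.5 CPM beside the lower members, and their part was not tested either.

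**Figure D2:**
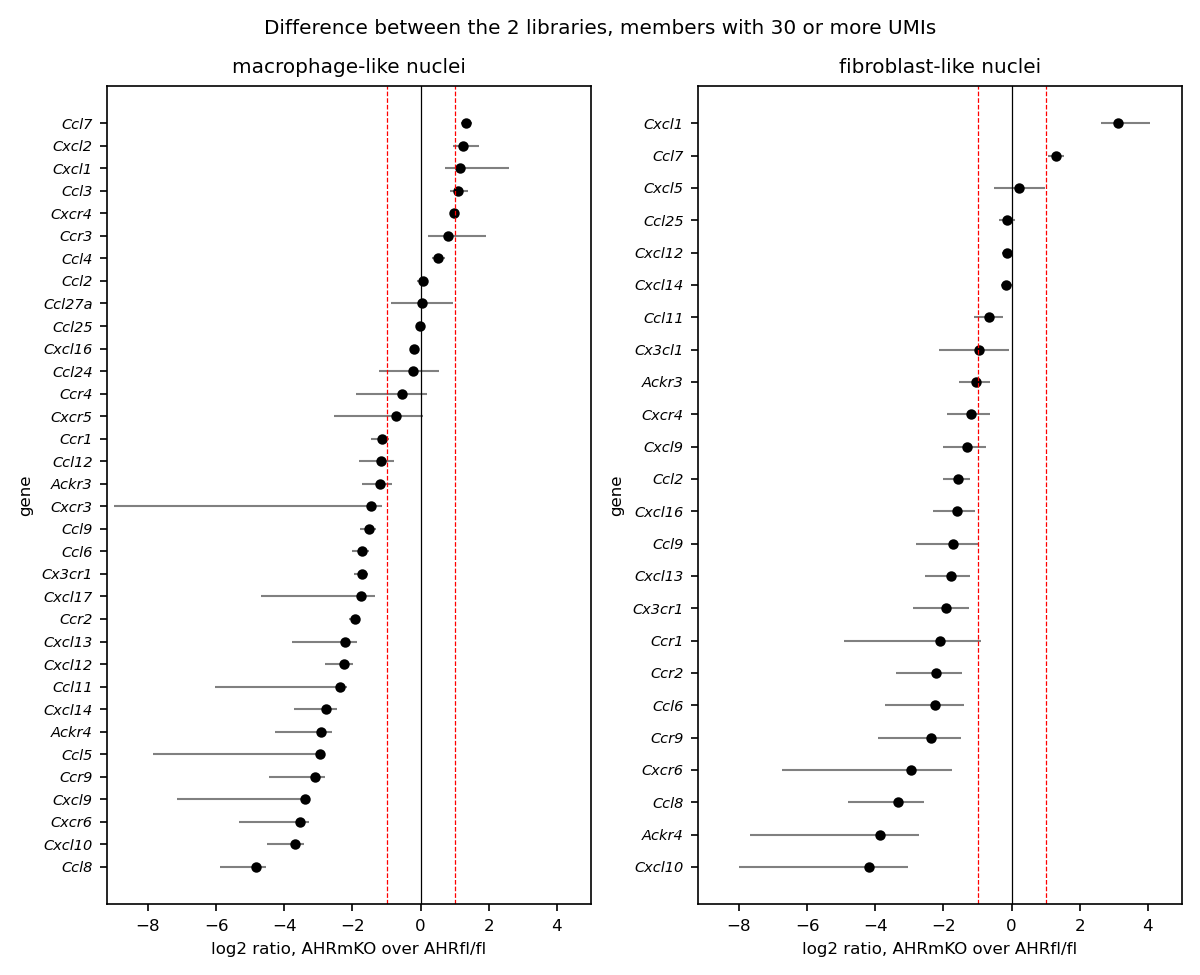
Log2 ratio of the level in the AHRmKO library over that in the AHRfl/fl library (x axis) for members with at least 30 UMIs in macrophage-like (34 members) and fibroblast-like (24 members) nuclei. Points have 0.5 CPM added and grey lines are counting intervals without it, so a point can lie at the edge of its line; 1 interval, that of Cxcr3, runs past the axis limit of -9. Red lines mark 2-fold.

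Promoter sequences were available for 45 of the 60 symbols (52 transcription starts, RefSeq, GRCm38.p6, 250 bases upstream of each start). Those of Cxcl10, Ccl8 and Cxcl1 are shown because Ccl8 and Cxcl10 had the lowest ratios in macrophage-like nuclei and Cxcl1 the highest in fibroblast-like nuclei. They were searched on both strands for a form of the NF-kB motif (3 guanines, 2 free bases, 2 thymines, 1 free base and 2 cytosines), an interferon-stimulated response element (1 guanine and 3 adenines, 2 free bases, and the same 4 bases again), TGANTCA (AP-1) and GCGTG (the core of the AHR element). None of the 4 contains another. Capitals mark matches. The upstream window of Cxcl10, chr5:92348890-92349139 on the minus strand, held 1 match of each motif. That of Ccl8, chr11:82114935-82115184 on the plus strand, held none. That of Cxcl1, chr5:90890995-90891244 on the plus strand, held 2 matches of the NF-kB form.
Cxcl10: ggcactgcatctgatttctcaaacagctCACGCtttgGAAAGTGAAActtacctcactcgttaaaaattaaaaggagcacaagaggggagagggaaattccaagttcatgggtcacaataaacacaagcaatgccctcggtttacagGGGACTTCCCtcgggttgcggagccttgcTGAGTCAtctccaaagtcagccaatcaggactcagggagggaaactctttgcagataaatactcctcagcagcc
Ccl8: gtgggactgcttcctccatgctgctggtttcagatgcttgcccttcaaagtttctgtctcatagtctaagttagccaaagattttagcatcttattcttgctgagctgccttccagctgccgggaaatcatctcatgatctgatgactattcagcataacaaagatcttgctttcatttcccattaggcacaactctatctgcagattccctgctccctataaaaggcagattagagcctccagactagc
Cxcl1: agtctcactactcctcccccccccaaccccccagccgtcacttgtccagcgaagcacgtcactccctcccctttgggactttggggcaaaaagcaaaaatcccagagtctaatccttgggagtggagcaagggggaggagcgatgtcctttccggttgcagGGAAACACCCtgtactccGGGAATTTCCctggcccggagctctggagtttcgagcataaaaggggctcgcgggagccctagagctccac
Over all 32851 promoters of the same length the NF-kB form was present in 4.109%, and in 10 of the 52 starts of members. The interferon element was in 2.977% of all and 3 of 52, the AP-1 motif in 6.749% and 6 of 52, and the AHR core in 28.16% and 19 of 52. A match describes the letters and is not a bound site.

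The macrophage-like class held 7 clusters, and most were filled by 1 library, so the comparison above sets different clusters against each other. Cluster 15, with 1929 nuclei, made up 78.9% of the class in the AHRmKO library and 0.357% in the other. Clusters 0, 1, 3 and 14 held 2387, 2028, 1453 and 599 nuclei of the AHRfl/fl library. Cluster 0 had the most Ccr2 (202 CPM), Cx3cr1 (103 CPM) and Cxcl16 (170 CPM) among the clusters with at least 50 nuclei of that library. Cluster 3, led by F13a1, Mrc1 and Cd163, genes of tissue-resident macrophages, had 128 CPM of Ccl8, 106 CPM of Ccl6 and 91.8 CPM of Ccl9. Cluster 1, led by Alcam, Atp6v0d2 and Rbm47, had 67.1 CPM of Ccl2 and 29.3 CPM of Ccl7. The genes that define clusters were selected on these nuclei, but no member was used for the clustering.

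Cluster 18, a small group of 172 nuclei led by Rsad2, Ifi213 and Ifi209, which are interferon-stimulated genes, had 637 CPM (573 to 705) of Cxcl10. The other clusters with at least 50 nuclei of the AHRfl/fl library had 12.3 to 42.2 CPM. Cxcl9 had 81.7 CPM in cluster 18, Ccl12 had 40.0 CPM and Ccl5 had 38.3 CPM, on 22 to 47 UMIs each. The cluster was 2.36% of the class in the AHRfl/fl library and 0.696% (17 nuclei) in the AHRmKO library, where Cxcl10 still had 220 CPM on 14 UMIs. Cluster 2, led by genes of cell division such as Top2a and Kif11, was the only macrophage-like cluster with at least 50 nuclei of each library (618 and 423). There, Ccl7 had 27.2 and 63.3 CPM, Cxcr4 had 87.9 and 166 CPM, Ccr2 had 65.9 and 23.4 CPM, and Ccl8 had 45.5 and 0.767 CPM. The 45.5 CPM (37.7 to 54.3) of Ccl8 was not above its free-RNA level of 46.9 CPM, and neither were the 46.7 CPM of cluster 1 and the 37.6 CPM of cluster 14. Clusters 3 (128 CPM), 18 (104 CPM) and 0 (52.6 CPM, 47.5 to 58.0) lay above it. Cxcl10 had 82 UMIs in the AHRfl/fl library and 0 in the other. Of 25 members compared in cluster 2, 15 were lower and 3 were higher in the AHRmKO library, beside 18.1% and 3.18% of the 13265 genes compared there. Besides Ccl8, the lower members Cxcl12 (23.1 CPM), Cxcl13 (3.35 CPM), Cxcl14 (10.4 CPM) and Ackr3 (5.96 CPM) were under their free-RNA levels in the AHRfl/fl library.

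**Figure D3:**
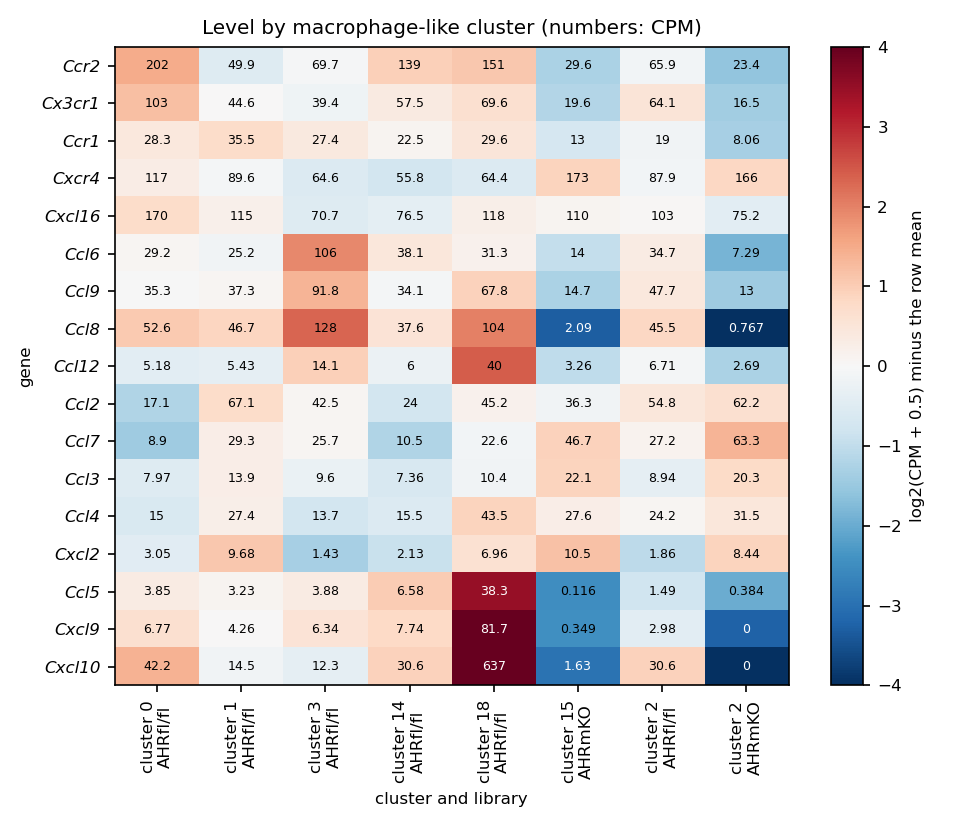
Level of 17 members (rows) in macrophage-like clusters with at least 50 nuclei of a library (columns), with the CPM printed and colour showing log2(CPM + 0.5) minus the mean of the row. Cxcl10, Cxcl9, Ccl5 and Ccl12 stand out in cluster 18, and cluster 2 shows both libraries side by side.

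Fibroblast-like nuclei, 1354 and 629 in a single cluster, gave 33 members to compare, of which 21 were lower in the AHRmKO library (18.5% of all genes) and 2 were higher (6.13% of all genes). The median log2 ratio of the members was -1.35, beside -0.08 over all genes. Of the 21 lower members, 6 were at or under their free-RNA level in the AHRfl/fl library. The 2 higher members were ligands. Cxcl1 had 3.43 CPM (21 UMIs) in the AHRfl/fl library and 34.1 CPM (100 UMIs, interval 27.7 to 41.4) in the AHRmKO library. Ccl7 had 44.3 and 109 CPM. In contrast to Ccl7, Ccl2 had 69.5 and 22.8 CPM, and its opposite-strand neighbour Gm17268 had 60.4 and 3.75 CPM. The log2 ratio of Ccl2 was -1.59, and -0.94, under 2-fold, when nuclei were thinned to 2000 UMIs. Ccl2 and Ccl7 are both Ccr2 ligands and lie next to each other on chromosome 11, at chr11:82035571-82037453 and chr11:82045712-82047525 (GRCm38). Their ratios thus had opposite signs in fibroblast-like nuclei. Cxcl10 had 20.8 and 0.681 CPM in fibroblast-like nuclei, and Cxcl13, a ligand for B cells, had 29.4 and 8.17 CPM. Ccl5 had 16 and 0 UMIs, 2.56-fold lower with a floor of 3 UMIs in place of the 0. The upper limit of its log2 ratio was -0.89. Its 2.62 CPM in the AHRfl/fl library was close to the free-RNA level of 2.58 CPM, and with free RNA subtracted the log2 ratio went from -2.64 to -0.14, under 2-fold. Of the macrophage receptors, Ccr2 (19.1 CPM) lay near its free-RNA level of 17.8 CPM in the AHRfl/fl library, and 13 macrophage markers summed to 1724 and 497 CPM in this class.

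In satellite-like nuclei 37 members were compared, 21 lower (17.4% of all genes) and 2 higher (6.01% of all genes), with a median log2 ratio of -1.18 beside -0.11. Of the 21, 11 were at or under their free-RNA level in the AHRfl/fl library. The 2 higher were again Cxcl1, with 2.43 and 9.26 CPM, and Ccl7, with 4.07 and 8.97 CPM. Cxcl1 was above its free-RNA levels of 0.569 and 0.824 CPM, but Ccl7 was close to its free-RNA levels of 6.67 and 8.19 CPM. The log2 ratio of Ccl7 was 1.05 and fell under 2-fold in 5 alternatives, at 0.57 to 0.89: from 1000 and from 5000 UMIs per barcode, without the mitochondrial and doublet filters, with 2 CPM added, and in clusters with at least 50 nuclei of each library. Ccr4, known on T cells as the receptor for Ccl17 and Ccl22, was highest in this class, with 6.57 and 8.28 CPM, against free-RNA levels of 1.20 and 0.575 CPM. Cxcl10 had 268 UMIs in the AHRfl/fl library and 6 in the AHRmKO library, or 19.1 and 0.585 CPM. The libraries filled different clusters here too: cluster 10 held 1947 and 53 nuclei, cluster 11 held 36 and 1315, and cluster 7 held 1220 and 745. In this class 13 macrophage markers summed to 1196 and 430 CPM and 13 myofibre markers to 4961 and 12695 CPM, none at 0, and their part in the differences was not tested.

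In myofibre-like nuclei 32 members were compared, 20 lower (18.2% of all genes) and 1 higher (9.27% of all genes), with medians of -1.46 and -0.11. Here 15 of the 20 were at or under their free-RNA level in the AHRfl/fl library. The higher member was Ccl7, with 4.14 and 9.32 CPM, near its free-RNA levels. Its log2 ratio of 1.08 fell under 2-fold from 1000 UMIs per barcode (0.78), with 2 CPM added (0.88) and in clusters with at least 50 nuclei of each library (0.69). The 2 libraries filled different myofibre-like clusters: cluster 8 held 984 nuclei of the AHRfl/fl library and 2 of the other, and cluster 19 held 55 and 1577. Cxcl10 had 5.84 CPM in the AHRfl/fl library, below its free-RNA level of 11.1 CPM, and 0.476 CPM in the AHRmKO library. With free RNA subtracted its log2 ratio turned from -2.70 to 0.32. In endothelial-like nuclei 26 members were compared, 19 lower (22.4% of all genes) and 1 higher (6.03% of all genes). The higher one was Ccl7, on 12 and 16 UMIs with an interval of the ratio that held 0. Of the 19, 0 were at or under their free-RNA level in the AHRfl/fl library, which used the share pooled with macrophage-like nuclei. Whether this count would hold with a share from endothelial-like nuclei alone was not tested. Myofibre markers summed to 8942 and 3926 CPM in this class and macrophage markers to 4062 and 1263 CPM. Their part in the lower values was not tested. Cxcl12 had 87.2 and 40.3 CPM there. Cxcl13, Ccl21a, Ccl5 and Ccr9 had 16 or 17 UMIs in the AHRfl/fl library and 0 in the other. With a floor of 3 UMIs in place of the 0, each was 3.23-fold lower or more. The upper limit of the log2 ratio was -1.32 for Cxcl13 and -1.22 for each of the others. In adipocyte-like nuclei, 105 and 82 in number, 17 members were compared, 9 lower (15.7% of all genes) and 1 higher (11.1% of all genes). Of the 9, 1 (Ccl8) was at or under its free-RNA level in the AHRfl/fl library. Cxcl12 had 152 and 87.9 CPM there, and the 1 higher member, Ccl7, had 7 and 18 UMIs. The 13 macrophage markers, none at 0, summed to 1481 and 586 CPM in adipocyte-like nuclei and to 1190 and 422 CPM in myofibre-like nuclei, and their part in the lower values was not tested.

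Ccl25, known as a ligand of the thymus and small intestine that acts on Ccr9, was even across classes. Its levels in the 6 classes ran from 54.9 to 81.9 CPM in the AHRfl/fl library and from 55.4 to 87.9 CPM in the AHRmKO library. The highest class exceeded the lowest 1.49-fold and 1.59-fold, while for Ccl11 the same ratio was 14.2 and 79.8. Ccl25 was the most even of the 38 members with at least 50 UMIs in both libraries. It has 2 transcription starts in RefSeq, on the plus strand. The upstream window of the first, chr8:4324960-4325209, has a GC content of 74.8% with 45 CpG sites. This start lies beside Elavl1, which is annotated on the opposite strand and overlaps 0.586% of the Ccl25 gene. The upstream window of the second, chr8:4349338-4349587, has a GC content of 51.6% and 0 CpG sites. Over all promoters the median was 52.4% and 6 sites. The counts do not say which start was used. Both windows are shown because they differ in composition, and capitals mark the match of the AHR core.
Ccl25 first start: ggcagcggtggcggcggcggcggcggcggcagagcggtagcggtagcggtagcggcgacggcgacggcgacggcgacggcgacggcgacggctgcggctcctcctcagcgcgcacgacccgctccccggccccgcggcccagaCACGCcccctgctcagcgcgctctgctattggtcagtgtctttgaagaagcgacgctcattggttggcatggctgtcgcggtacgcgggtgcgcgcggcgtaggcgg
Ccl25 second start: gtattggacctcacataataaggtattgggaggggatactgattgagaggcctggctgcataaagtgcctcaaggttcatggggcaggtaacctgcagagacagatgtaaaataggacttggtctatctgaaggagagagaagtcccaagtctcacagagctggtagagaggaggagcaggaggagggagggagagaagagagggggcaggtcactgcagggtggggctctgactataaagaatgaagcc
Elavl1, a widely present RNA-binding protein, had 102 and 96.9 CPM in macrophage-like nuclei.

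Cxcr6, Ccr9 and the atypical receptor Ackr4 showed a further pattern. In the AHRfl/fl library each was present in all 6 classes, Cxcr6 at 5.12 to 26.5 CPM, Ccr9 at 9.76 to 15.2 CPM and Ackr4 at 7.32 to 40.9 CPM. In the AHRmKO library none exceeded 2.44 CPM in any class. In myofibre-like nuclei Cxcr6 had 218 UMIs and 1 UMI, Ccr9 had 125 and 4, and Ackr4 had 147 and 7. In satellite-like nuclei Cxcr6 had 143 and 0 UMIs, 34.9-fold lower with a floor of 3 UMIs in place of the 0. Cxcr6 and Ackr4 lie wholly within genes on the opposite strand, Fyco1 and Acad11, and Lztfl1 covers 22.0% of Ccr9 from the opposite strand. The counts of Cxcr6, Ackr4 and Ccr9 are therefore less certain in every class. Whether they are separated by strand from those of these genes is not given in the sources used here. In myofibre-like nuclei Fyco1 had 164 and 123 CPM and Acad11 had 19.7 and 20.4 CPM, while in satellite-like nuclei they had 61.9 and 52.6 CPM, and 18.1 and 15.3 CPM. Both differed by under 2-fold in these classes. Lztfl1 was over 2-fold lower in both, with 31.5 and 11.8 CPM in myofibre-like nuclei and 44.8 and 19.0 CPM in satellite-like nuclei. In macrophage-like nuclei it had 47.0 and 29.8 CPM. Lztfl1 is 1 of 6 genes that overlap Ccr9. Another, Gm17200, is on the same strand and overlaps 21.35% of it. Gm17200 had 3 and 0 UMIs in myofibre-like nuclei and 7 and 0 in satellite-like nuclei. Cxcr6, Ackr4 and Ccr9 had 2.02, 2.29 and 2.8 CPM in droplets of 200 to under 500 UMIs of the AHRfl/fl library, against 14.8, 14.5 and 12.4 CPM over all nuclei. Of the 38 members with at least 50 UMIs, 30 were instead lower in nuclei than in those droplets in that library, with a median ratio of 0.415. In the AHRmKO library 19 were lower and 19 higher in nuclei. The same counts and median over all genes are not given here, so these values have no background beside them.

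**Figure D4:**
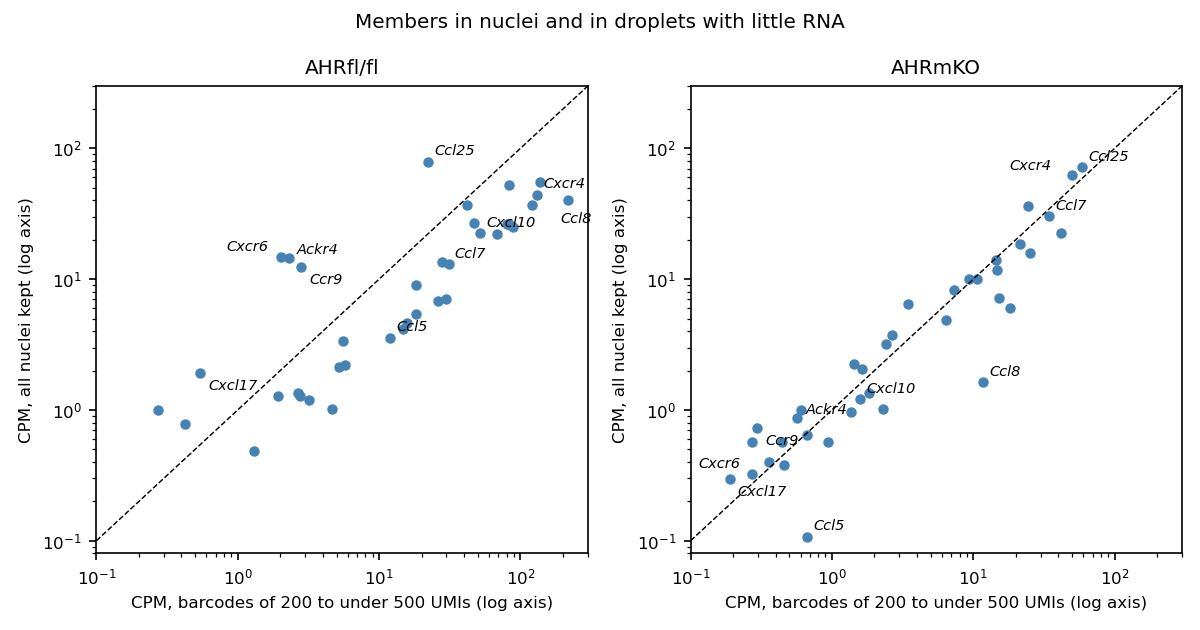
Level over all nuclei (y axis, CPM, log scale) against the level in barcodes of 200 to under 500 UMIs (x axis, CPM, log scale) for 37 members in each library, with equality dashed. In the AHRfl/fl library (left) 6 members lie over 3-fold above the line, among them Cxcr6, Ackr4, Ccr9 and Ccl25, and no member lies over 3-fold above it in the AHRmKO library (right). The same counts over all genes are not given here.

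Pairs of neighbouring genes were also compared nucleus by nucleus in macrophage-like nuclei thinned to 2000 UMIs. Among nuclei with a Ccl7 UMI, 30.1% (24.4 to 36.2) in the AHRfl/fl library and 36.1% (28.6 to 44.1) in the AHRmKO library also had a Ccl2 UMI. Among nuclei without one, the shares were 5.30% and 3.76%. Ccl3 was found in 5.04% and 13.8% of nuclei with Ccl4, against 1.69% and 3.55% of nuclei without it. Ccl6 was found in 13.2% and 12% of nuclei with Ccl9, against 7.0% and 2.37%. Ccl8 showed no gap by its neighbour Ccl12 in the AHRfl/fl library, with 11.1% and 11.1%, while Cxcl9 was found in 5.81% of nuclei with Cxcl10 and 1.08% of those without. For a pair that are not neighbours, Cxcl12 on chromosome 6 and Cxcl14 on chromosome 13, Cxcl12 in fibroblast-like nuclei was found in 32.8% and 24.0% of nuclei with Cxcl14, against 24.4% and 22.0% of those without. Nuclei share a library and are not replicates, so these shares are descriptions.

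**Figure D5:**
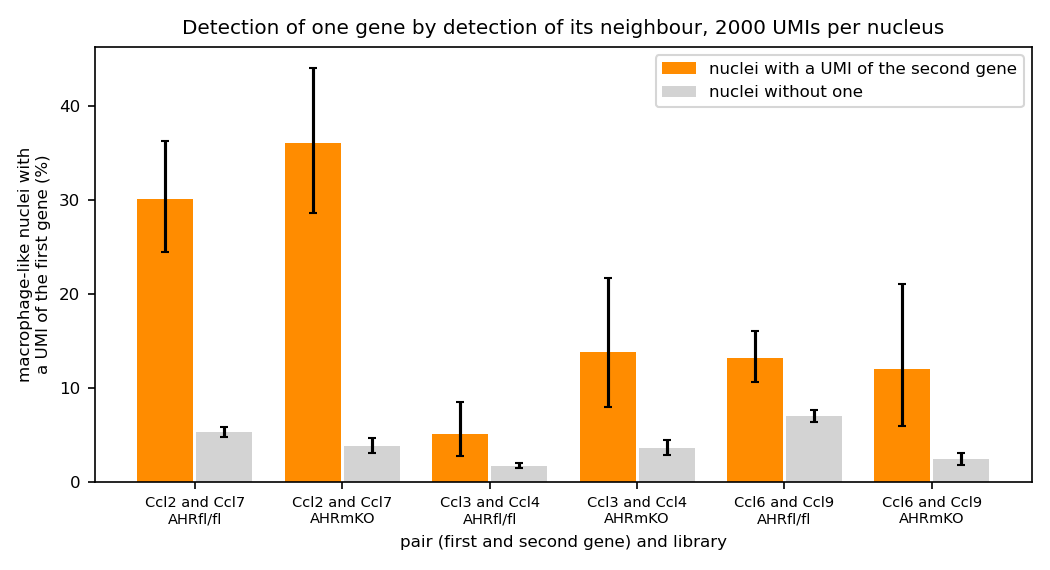
Share of macrophage-like nuclei with a UMI of the first gene (y axis, %) among nuclei with (orange) and without (grey) a UMI of the second gene, for 3 pairs of neighbouring genes and 2 libraries, with exact binomial intervals as bars. Ccl2 and Ccl7 show the widest gap.

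The other genes of the pathway were read from 3 lists in macrophage-like nuclei, where 3.03% of all genes were higher and 18.0% lower. Of 20 genes of receptor signalling, all were compared, 2 were higher and 0 lower in the AHRmKO library, with a median log2 ratio of 0.19. The 2 were Rgs1, with 111 and 275 CPM, and Rgs2, with 61.4 and 151 CPM, both of which shorten G-protein signals. The lowest ratios of that list were those of Rgs18 (-0.54) and Gng2 (-0.36). Of 17 inducers of chemokines and genes of NF-kB feedback, 15 were compared, 2 were higher and 1 was lower. Il1b, an inflammatory cytokine, had 5.01 and 21.6 CPM, and Nfkbiz, a nuclear regulator of NF-kB, had 61.8 and 135 CPM. Irf7, an interferon regulatory factor, had 21.8 and 7.34 CPM and was the lower one, and Osm, with a ratio of -0.63, came next. Of 16 other chemoattractants and genes of their handling, 0 were higher and 8 were lower, with a median of -1.04. Dpp4, a protease that trims chemokines, had the lowest ratio (-3.02), followed by Cd74 (-2.72), a receptor of Mif. Dpp4 is also 1 of the 10 fibroblast markers, which summed to 730 and 97.1 CPM in macrophage-like nuclei. Their part in its ratio was not tested, and the genes of this list were not set against free-RNA levels. Ccrl2 (0.43) and Csf1r (-0.06) had the highest.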

How the data were processed

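Nuclear RNA of 2 libraries was counted with the Chromium 3′ HT chemistry. The deposited values are unnormalised UMI counts for all barcodes, as the authors made them. Cell Ranger 7.0.1 and the build mm10 are named per the submitters' processing notes; the annotation, the use of strand and of introns are not given in the sources used here. The library totals were 151788328 and 113737134 UMIs. Barcodes with at least 2000 UMIs, 200 genes and at most 10% mitochondrial UMIs were kept. The top Scrublet scores (0.4% per 1000 nuclei) were left out as doublets, which removed 1358 and 250. Nuclei were clustered in Python 3.11.15 with scanpy 1.11.5 and anndata 0.12.19 (2000 variable genes without members, 30 components, 15 neighbours, Leiden resolution 0.8, no integration). A cluster was named for the class, out of 17 marker lists, with the largest share of markers 2-fold above the median of the other clusters (10 CPM added, at least 3 markers). Of 21 clusters, 20 were named; the names are this reconstruction, not the authors'. Counts of a class were summed in each library. The log2 ratio has 0.5 CPM added, which understates low genes, with an exact conditional binomial interval. A gene was compared from 10 UMIs over both libraries. With 1 library per group there was no test. The ratio was also computed on simulated counts. Their setting and outcome are not given here, so they are no support for any difference above. Overlaps used GENCODE M21. Genes were named at 10 CPM in both libraries, or as the at most 5 highest and 5 lowest past 2-fold per class, with a fixed list; Cxcl13, Ccr4, Ackr1, cluster values, Cxcl16 and the other lower ligands were added after their values were seen. 1 member is counted but not reported here. Members and lists were chosen with earlier results of these data known.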

Additional observations from a re-analysis of the deposited data

Results flagged for a closer look

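Barcodes of 200 to under 500 UMIs gave the free-RNA levels but entered no comparison of nuclei between the libraries, and 3 members had a higher level there in the AHRmKO library than in the AHRfl/fl library, with an interval of the ratio that left out equality. Ccl25 had 58.6 CPM in the AHRmKO library and 22.2 CPM in the other. Ccl7 had 34.6 and 31.1 CPM. Cxcl1 had 3.48 and 2.65 CPM. Ccl7 and Cxcl1 were also higher in nuclei of the AHRmKO library, and Ccl25 was not.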

How the results depend on the processing

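No paired analysis was possible because each group has 1 library. The count of 16 members at 10 CPM ran from 11 to 17 over the alternatives; 11 is the count without members that another gene overlaps, an alternative chosen after seeing the data. The 22 members lower in macrophage-like nuclei ran from 15 to 26. The 4 higher became 2 without the mitochondrial and doublet filters, 2 with 2 CPM added and 7 with free RNA subtracted. The shares of all genes called under these alternatives are not given here, so neither range can be set against them. The median log2 ratio of -1.05 ran from -1.48 to -0.23, the latter without the filter on UMIs. The share of member UMIs in macrophage-like nuclei, 56.8% in the AHRfl/fl library and 58.2% in the AHRmKO library, was 59.1% and 63.5% from 1000 UMIs per barcode, 39.6% and 54.8% without the mitochondrial and doublet filters, 57.5% and 62.1% with libraries clustered separately, 54.9% and 59.0% at resolution 0.4, 54.6% and 59.8% at resolution 1.6, 63.3% and 59.9% thinned to 2000 UMIs, 63.9% and 65.2% with free RNA subtracted, and 59.0% and 60.2% without overlapped members. From 5000 UMIs it was 43.1% and 57.5%. The cause was not tested. Of 625 values of single genes, 495 stayed within their counting interval, 129 moved and, among genes past 2-fold, 1 reversed: Cxcl10 in myofibre-like nuclei, at 0.32 with free RNA subtracted. Among genes under 2-fold, 4 changed sign in at least 1 alternative: Cxcl14 (-0.28 to 0.24) and Cxcl12 (-0.18 to 0.21) in fibroblast-like nuclei, and Ccl24 (-0.73 to 0.49) and Ccl2 (-0.11 to 0.67) in macrophage-like nuclei. Of 40 ratios past 2-fold, 13 fell under it in some alternative, 6 of them with free RNA subtracted and 7 in others, among them Cxcl1 in macrophage-like nuclei (0.03 in clusters filled by both libraries) and Ccl7 in satellite-like nuclei (0.57 from 5000 UMIs per barcode). With free RNA subtracted Ccl8 was left at 0 in both libraries in fibroblast-like, satellite-like and myofibre-like nuclei, and Cxcl12 in macrophage-like nuclei. Depth limits members under 10 UMIs.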
